A study of Rattus norvegicus with 12 samples.

Results

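Rat nucleus pulposus cells were given exosomes of progenitor cells that overexpress miR-221-3p or plain exosomes. The question taken up here is whether the cells responded to erastin in the same way under both kinds. It is the interaction of a 2 by 2 design, the erastin response under one kind of exosome minus the erastin response under the other, and it uses all 12 of the 12 RNA-seq libraries and 15650 of the 21071 genes in the deposited table, the rest having too few counts. The groups were Erastin+miR_Exo, miR_Exo, Erastin+NPPC_Exo and NPPC_Exo, with 3 libraries each. NPPC_Exo are exosomes of nucleus pulposus progenitor cells, which the labels give at 50 µg/mL, and miR_Exo are exosomes of such progenitors that overexpress miR-221-3p, for which no separate dose is given. Erastin was given at 0.1 to 5 µM for 48 h, with no dose for a single library. All groups received exosomes, so every value below compares one kind of exosome with the other and none compares exosomes with no exosomes.

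Nucleus pulposus cells live in the soft centre of the disc between vertebrae, where they make a matrix of aggrecan and type II collagen. Erastin blocks the cystine importer whose transport subunit is Slc7a11, so that glutathione runs short, iron-dependent peroxidation of membrane lipids goes unchecked and cells can die by ferroptosis. MicroRNAs lower the level of messages that pair with their seed, the stretch near the 5′ end, and miR-221-3p is known for lowering the cell cycle inhibitor Cdkn1b in several cell types.

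Total counts ran from 54616827 to 68865720 per library. Matrix genes of the disc list summed to between 9373 and 22420 CPM (counts relative to library size, scaled by trimmed means). Of 16 genes in the disc identity list 11 were in the table, and these summed to between 241 and 400.6 CPM. T, Krt19, Shh, Noto and Foxf2 of that list were not in the table. Within the identity list the notochordal keratin Krt8 lay between 2.14 and 5.88 CPM and Foxf1 between 0.979 and 3.04 CPM. Whether libraries of one group are separate cultures or animals is not stated, and p-values therefore measure the spread between libraries, which may be technical. RNA came from whole cultures, so fewer cells of a kind and less RNA per cell cannot be told apart.

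The mature microRNA that the donor cells of miR_Exo overexpress is shown with that of its neighbour on the X chromosome. The 2 share the seed, in capitals at bases 2 to 8 (RefSeq, build GRCr8).
rno-miR-221-3p (chrX:6023246-6023268, plus strand): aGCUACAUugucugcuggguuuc
rno-miR-222-3p (chrX:6022682-6022702, plus strand): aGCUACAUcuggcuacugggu
Reads on the host hairpin gene Mir221 followed the kind of exosome and not erastin. Mir221 had 24.4, 23.9 and 24.4 CPM in the Erastin+miR_Exo libraries and 29.1, 26.4 and 27.6 CPM in the miR_Exo libraries, against 0.411, 0.318 and 0.327 CPM in the Erastin+NPPC_Exo libraries and 0.303, 0.320 and 0.307 CPM in the NPPC_Exo libraries. Libraries with miR_Exo lay far above the others, while within each kind of exosome the erastin libraries stayed close to those without it. The interaction of Mir221 was −0.37 ± 0.19 on the log2 scale (adjusted p = 0.392, edgeR quasi-likelihood test with Benjamini-Hochberg adjustment, as for every adjusted p below) from responses of −0.19 ± 0.09 under miR_Exo and 0.17 ± 0.17 under NPPC_Exo. These libraries were not made for small RNAs, so the reads are of longer transcripts and say nothing on the mature microRNA.

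The erastin response differed between the kinds of exosome in 1958 of 15650 genes at an adjusted p under 0.05, or 12.5%. It was higher under miR_Exo in 923 of them (5.90%) and lower in 1035 (6.61%), but which side had more calls turned with the scaling, with 1079 higher and 979 lower under library size alone. A higher interaction says that erastin moved a gene further up, or less far down, under miR_Exo. Of the higher genes, 322 had a positive response under both kinds of exosome, 266 a negative response under both, and 335 a positive one under miR_Exo with a negative one under NPPC_Exo. Of the lower genes, 154 were positive under both, 412 negative under both, and 469 negative under miR_Exo with a positive response under NPPC_Exo. Both responses passed the test in opposite directions in 67 of the higher and 86 of the lower genes. Opposite responses that both passed were thus a small share of the calls.

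Most called interactions were under 2-fold. Erastin changed 7690 genes (49.1%) under miR_Exo and 6812 (43.5%) under NPPC_Exo. The called interaction was less than 2-fold in 1473 of the 1958 genes, and at least 2-fold in 485, of which 146 were higher and 339 lower. Of the 1958 genes, 36 had 0 counts in a whole group, where the size and even the sign of the fitted value rest on the zeros. Counts of calls and of directions include these genes. The median was 0.51 over the higher genes and −0.74 over the lower ones, with median standard errors of 0.11 and 0.16, and 0.03 over all genes tested. Tested against 1.5-fold in place of no change (glmTreat), 54 genes passed, 29 higher and 25 lower.

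The same interaction can be read as the difference between the kinds of exosome with erastin minus that difference without it. Over all genes, miR_Exo differed from NPPC_Exo in 31.5% with erastin and in 11.1% without it. Among the higher genes, miR_Exo passed the test against NPPC_Exo with erastin but not without it in 649, without erastin alone in 99, in both settings in 128 and in neither in 47. Among the lower genes these counts were 745, 77, 148 and 65. The gap between the kinds of exosome was thus mostly one between the erastin groups, but in a minority of genes the difference passed the test without erastin alone. Il1r1, the signalling receptor of interleukin 1, was such a gene. Il1r1 had 169, 168 and 151 CPM in the Erastin+miR_Exo libraries and 52.8, 50.2 and 56.2 CPM in the miR_Exo libraries, against 167, 179 and 163 CPM in the Erastin+NPPC_Exo libraries and 90.3, 93.3 and 89.3 CPM in the NPPC_Exo libraries. The erastin libraries overlapped between the kinds of exosome, and only those without erastin were apart. Its response of 1.62 ± 0.06 under miR_Exo against 0.90 ± 0.06 under NPPC_Exo and an interaction of 0.71 ± 0.08 (adjusted p = 0.000186) thus went with a difference between the exosomes of −0.06 ± 0.06 with erastin and −0.78 ± 0.06 without it.

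**Figure D1:**
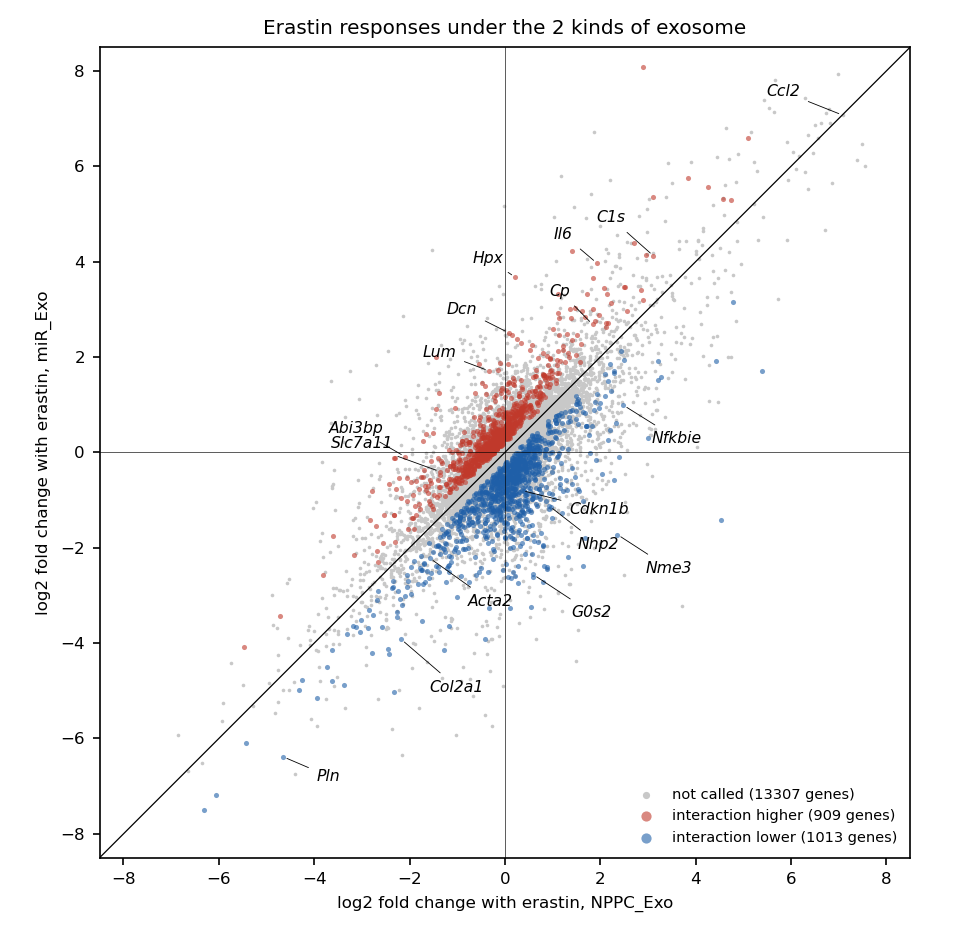
Log2 fold change with erastin under miR_Exo (vertical axis) against that under NPPC_Exo (horizontal axis), 1 point a gene, without genes that had 0 counts in a whole group. Red and blue points have a higher and a lower interaction at an adjusted p under 0.05, and the line marks equal responses; most genes lie along it, Il6, Hpx and Dcn above it and G0s2 and Nhp2 below it.

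Since an interaction draws on the spread of all 4 groups, each library was left out in turn. Between 1217 and 2567 genes passed in these 12 fits, with the fewest without library 3 of Erastin+NPPC_Exo and the most without library 1 of NPPC_Exo. Leaving out library 1 of Erastin+miR_Exo gave 1239, library 1 of miR_Exo 1295 and library 2 of NPPC_Exo 1246 genes. In all 12 fits and the fit of all libraries, 969 genes passed (6.19%), 437 higher (2.79%) and 532 lower (3.40%). A count without a model used the 9 differences of log2 CPM between erastin libraries and those without erastin under each kind of exosome. All 9 under one kind lay beyond all 9 under the other in 2733 genes (17.5%), 8.77% higher and 8.69% lower, and this held for 865 of the 923 higher and 949 of the 1035 lower genes.

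**Figure D2:**
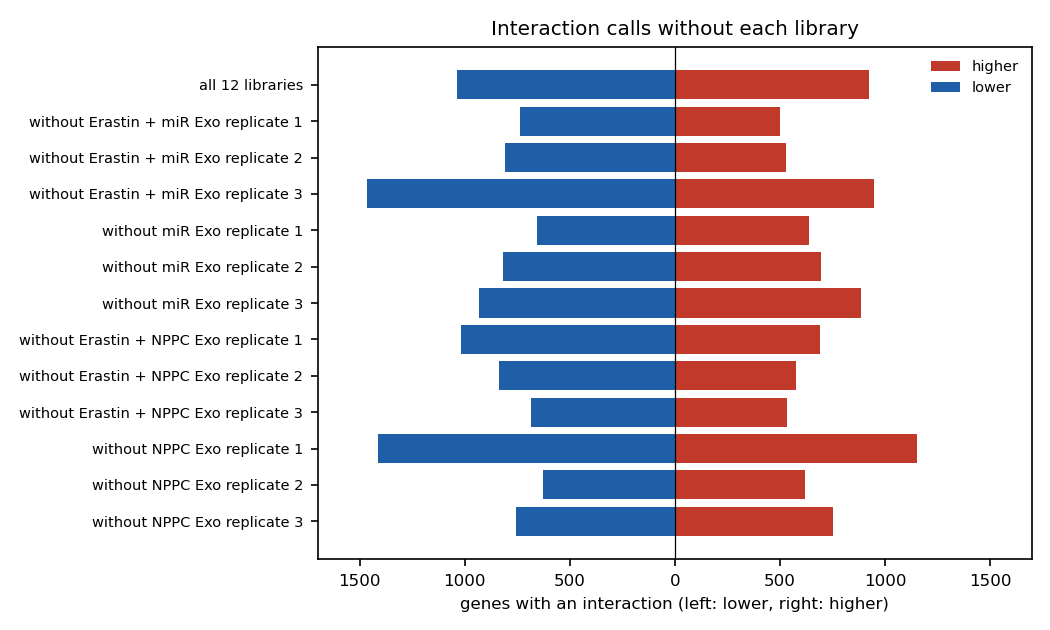
Genes with an interaction at an adjusted p under 0.05 when each library was left out, lower to the left and higher to the right, with the fit of all 12 libraries on top. Counts ranged from 1217 without library 3 of Erastin+NPPC_Exo to 2567 without library 1 of NPPC_Exo.

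The leading component of the spread within groups held 24.4% of the variance of the deviations from the group means over 12517 genes at 1 CPM or more. Library 1 of NPPC_Exo scored 0.664 on it and library 1 of miR_Exo 0.362, while the other 10 libraries lay between −0.398 and 0.239. Genes were split into deciles by their slope on this component. In the decile with the highest slopes 25.5% of genes had a lower and 0.6% a higher interaction, with a median interaction of −0.72. In the decile with the lowest slopes the shares were 1.4% lower and 4.0% higher, and the median was 0.13. Of the 1035 lower calls, 319 fell in the highest decile and 244 in the next. Across genes, which are not independent replicates, the interaction and the slope had a Pearson correlation of −0.461 over 12517 genes, both read from the same libraries. The part of the component in these lower calls was not tested by the design, but an alternative chosen after seeing the data, which took a smooth curve on the component out of each library, gave 2317 calls, 1095 higher and 1222 lower. It called 759 of the 1035 lower genes again in the same direction and moved their median to −0.49, and 772 of the 923 higher genes with a median of 0.44. Of the 319 lower genes in the highest decile, it called 153. The curve was fitted to the deviation of each library from the mean over all libraries. It therefore also took out differences between groups that followed the slope. A smaller interaction with it in this decile was thus partly built in and does not measure the spread between replicates. As a covariate, which varies only within groups, the component gave 2844 calls, 1240 higher and 1604 lower. The component was read from the spread within groups of these same libraries, and the test does not count its removal. Adjusted p with the curve are therefore likely too small, and calls with it are no independent check. The value with this curve follows below for genes of that decile.

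**Figure D3:**
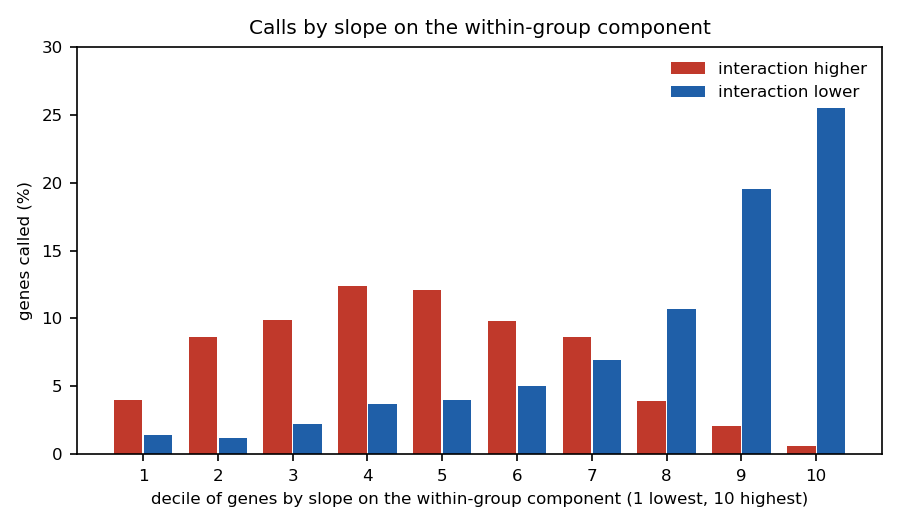
Percent of genes with a higher (red) and a lower (blue) interaction in each decile of 12517 genes, ordered by slope on the leading component of the spread within groups. Lower calls reach 25.5% in the highest decile and 1.4% in the lowest.

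Genes with a called interaction were longer than others. Counts per gene grow with length at equal FPKM, and their part in this was not tested. The median gene length implied by the deposited counts and FPKM was 3.28 kb over the higher and 2.67 kb over the lower genes at 1 CPM or more, against 2.46 kb over all genes tested at that level.

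Interleukin 6 and plasma proteins of the acute phase formed the clearest group with a larger erastin response under miR_Exo. Interleukin 6 is the cytokine that drives acute-phase synthesis in the liver, and the list of acute-phase and complement genes counted 7 higher and 0 lower of 10 tested, with a median interaction of 1.10 against 0.03 over all genes. Over all genes 5.90% were higher and 6.61% lower, the shares to set beside this and every list count below. Il6, the cytokine itself, had 93.5, 105 and 102 CPM in the Erastin+miR_Exo libraries and 5.47, 7.53 and 6.13 CPM in the miR_Exo libraries, against 23.7, 31.6 and 29.4 CPM in the Erastin+NPPC_Exo libraries and 7.13, 8.45 and 6.71 CPM in the NPPC_Exo libraries. The erastin libraries were apart between the kinds of exosome, and those without erastin overlapped. Il6 had a response of 3.97 ± 0.14 under miR_Exo against 1.93 ± 0.13 under NPPC_Exo and an interaction of 2.04 ± 0.18 (adjusted p = 2.34e-05), called in all 12 fits without one library.

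Hemopexin (Hpx), which binds free haem in plasma, had nearly no response under plain exosomes. Hpx had 12.3, 14.5 and 12.1 CPM in the Erastin+miR_Exo libraries and 0.966, 1.07 and 1.01 CPM in the miR_Exo libraries, against 2.53, 1.56 and 1.37 CPM in the Erastin+NPPC_Exo libraries and 2.39, 1.49 and 0.814 CPM in the NPPC_Exo libraries. The 3 Erastin+miR_Exo libraries lay above every other library, and the remaining groups lay between 0.814 and 2.53 CPM. Its response was 0.21 ± 0.31 under NPPC_Exo and its interaction 3.46 ± 0.44 (adjusted p = 0.000384). Hpx lies in the highest decile of slopes, and its interaction was 4.10 with the curve (adjusted p = 2.45e-05). Haptoglobin (Hp), which binds free haemoglobin, was low throughout and highest in Erastin+miR_Exo. Without erastin, Hp was lower in the miR_Exo than in the NPPC_Exo libraries, so part of its interaction lies between those groups. Hp had 3.17, 3.53 and 4.29 CPM in the Erastin+miR_Exo libraries and 0.535, 0.623 and 0.961 CPM in the miR_Exo libraries, against 1.70, 1.97 and 1.52 CPM in the Erastin+NPPC_Exo libraries and 1.46, 1.24 and 1.66 CPM in the NPPC_Exo libraries. Its response of 2.37 ± 0.26 under miR_Exo against 0.24 ± 0.25 under NPPC_Exo and an interaction of 2.12 ± 0.36 (adjusted p = 0.00199) also held in all 12 fits.

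The first components of complement rose under both exosomes and further under miR_Exo. C1s, a protease of the C1 complex, had 140.1, 154 and 147 CPM in the Erastin+miR_Exo libraries and 7.57, 8.37 and 9.37 CPM in the miR_Exo libraries, against 65.4, 76.3 and 75.4 CPM in the Erastin+NPPC_Exo libraries and 8.70, 8.43 and 7.94 CPM in the NPPC_Exo libraries. Without erastin the groups overlapped, and with erastin the miR_Exo libraries were the higher ones. C1s had a response of 4.12 ± 0.09 under miR_Exo against 3.11 ± 0.09 under NPPC_Exo and an interaction of 1.01 ± 0.12 (adjusted p = 0.000168). Its partner protease C1r had an interaction of 0.56 ± 0.07 (adjusted p = 0.000178) and the lipopolysaccharide-binding protein Lbp 1.36 ± 0.23 (adjusted p = 0.00199). The pentraxin Ptx3 had 1.5 ± 0.37 (adjusted p = 0.0178, called in 9 of 12 fits without one library) and the C1 inhibitor Serping1 0.96 ± 0.28 (adjusted p = 0.0363, called in 3 of 12). Ptx3 differed in another way from Il6, with 29.2, 28.7 and 28.6 CPM in Erastin+miR_Exo and 0.311, 0.277 and 0.299 CPM in miR_Exo, against 16.0, 29.3 and 25 CPM in Erastin+NPPC_Exo and 0.463, 0.715 and 0.868 CPM in NPPC_Exo, so that the erastin groups overlapped and the groups without erastin did not.

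Ceruloplasmin (Cp), the copper oxidase that loads iron on transferrin and also an acute-phase protein, was higher under miR_Exo with and without erastin. Cp had 173, 182 and 161 CPM in the Erastin+miR_Exo libraries and 26.0, 25.8 and 28.4 CPM in the miR_Exo libraries, against 30.8, 30.5 and 28.9 CPM in the Erastin+NPPC_Exo libraries and 7.15, 9.45 and 8.63 CPM in the NPPC_Exo libraries. The Erastin+miR_Exo libraries were the highest, and the miR_Exo libraries without erastin came close to the Erastin+NPPC_Exo ones. The difference between the kinds of exosome was 2.52 ± 0.09 with erastin and 1.67 ± 0.09 without it, an interaction of 0.85 ± 0.12 (adjusted p = 0.000652).

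**Figure D4:**
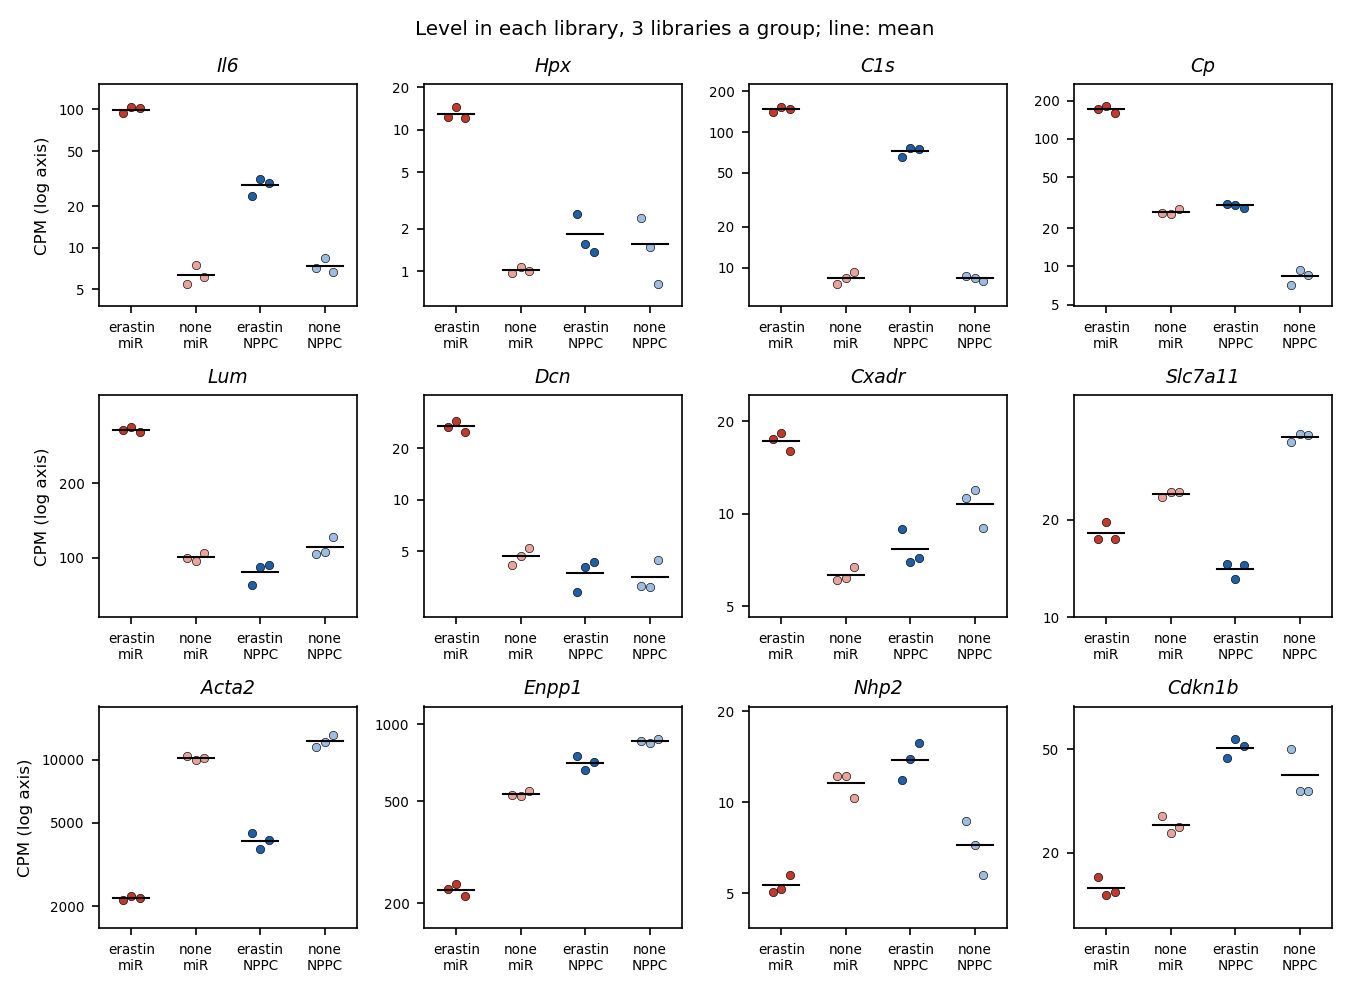
CPM (log axis) of 12 genes in each of the 12 libraries, with the mean of each group as a line; the groups are Erastin+miR_Exo, miR_Exo, Erastin+NPPC_Exo and NPPC_Exo from left to right. Il6, Hpx, C1s, Lum and Dcn are highest in Erastin+miR_Exo, and Acta2, Enpp1, Nhp2 and Cdkn1b are lowest there.

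Promoters of these genes are shown because acute-phase genes are textbook targets of C/EBP factors. Of 9 called genes looked up (Il6, Hpx, C1r, Ptx3, Cp, C1s, Hp, Lbp and Serping1), 5 had a promoter in the RefSeq table (GRCr8, 250 bases before to 50 after the start). Capitals mark TTGCNNAA, a C/EBP-type motif, on either strand, and in Il6 also GGANTTTCC, an NF-kB-type motif on either strand that does not overlap the other. Both motifs were picked after the sequences were read, so the shares of all promoters given next are no test of these matches. Each of the 5 promoters held TTGCNNAA once, as did 10.5% of 27457 promoters of this length at least once, and GGANTTTCC stood in 1.26% of them. A match is a run of letters and not a bound site.
Il6 (chr4:5894526-5894825, minus strand): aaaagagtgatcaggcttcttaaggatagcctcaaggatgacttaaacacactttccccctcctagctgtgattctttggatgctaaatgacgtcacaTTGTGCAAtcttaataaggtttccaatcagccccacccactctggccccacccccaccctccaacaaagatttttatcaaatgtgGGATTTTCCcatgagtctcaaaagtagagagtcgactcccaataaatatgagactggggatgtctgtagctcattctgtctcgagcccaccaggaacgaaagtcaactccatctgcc
Hpx (chr1:169352106-169352405, minus strand): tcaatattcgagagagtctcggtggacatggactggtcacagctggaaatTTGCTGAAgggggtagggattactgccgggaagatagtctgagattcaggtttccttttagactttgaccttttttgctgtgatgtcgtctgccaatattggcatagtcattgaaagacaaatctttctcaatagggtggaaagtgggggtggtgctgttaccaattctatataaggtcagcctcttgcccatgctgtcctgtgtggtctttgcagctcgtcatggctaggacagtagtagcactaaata
C1r (chr4:159098763-159099062, plus strand): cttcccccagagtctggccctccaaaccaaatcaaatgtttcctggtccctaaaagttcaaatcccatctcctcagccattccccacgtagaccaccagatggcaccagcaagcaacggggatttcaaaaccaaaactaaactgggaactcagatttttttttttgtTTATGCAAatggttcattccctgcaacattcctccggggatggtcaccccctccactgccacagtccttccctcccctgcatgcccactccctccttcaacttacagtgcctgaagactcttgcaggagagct
Ptx3 (chr2:152797313-152797612, plus strand): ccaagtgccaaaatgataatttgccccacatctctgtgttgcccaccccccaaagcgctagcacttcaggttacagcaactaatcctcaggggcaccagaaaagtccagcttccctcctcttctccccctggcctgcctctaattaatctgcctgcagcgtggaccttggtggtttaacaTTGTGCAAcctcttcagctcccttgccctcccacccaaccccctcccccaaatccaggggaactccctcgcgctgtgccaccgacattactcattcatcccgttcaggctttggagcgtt
Cp (chr2:104368420-104368719, plus strand): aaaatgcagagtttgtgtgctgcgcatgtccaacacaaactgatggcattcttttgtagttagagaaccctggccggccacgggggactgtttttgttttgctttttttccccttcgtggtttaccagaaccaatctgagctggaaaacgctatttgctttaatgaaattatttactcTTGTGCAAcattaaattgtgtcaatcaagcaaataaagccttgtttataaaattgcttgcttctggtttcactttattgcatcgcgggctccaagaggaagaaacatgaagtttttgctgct

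Other genes of cytokines and their receptors had calls in both directions. The list of cytokines and growth factors, which holds the receptors Il1r1 and Il1rl1, had 5 higher and 2 lower of 15 tested, with a median of 0.66. Of these, 3 higher and 1 lower were kept in all 12 fits without one library. Library size alone gave 5 higher and 1 lower. Lif, a cytokine of the Il6 family, had a response of 2.01 ± 0.11 under miR_Exo against 1.34 ± 0.11 under NPPC_Exo and an interaction of 0.66 ± 0.15 (adjusted p = 0.0135). Il1rl1, the receptor of interleukin 33, fell with erastin and fell further under miR_Exo. Il1rl1 had 209, 218 and 206 CPM in the Erastin+miR_Exo libraries and 1311, 1367 and 1469.5 CPM in the miR_Exo libraries, against 753, 559 and 618 CPM in the Erastin+NPPC_Exo libraries and 1937, 2028 and 2215 CPM in the NPPC_Exo libraries. Both erastin groups lay below both groups without erastin, and the Erastin+miR_Exo libraries were lowest. Its interaction was −1.03 ± 0.13 (adjusted p = 0.000384).

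Chemokines and the main matrix metalloproteinases responded strongly under both exosomes. Of 15 chemokines tested 1 was higher and 0 were lower, with a median interaction of 0.38, and their median response was 7.01 under miR_Exo and 6.36 under NPPC_Exo. Ccl2, which draws monocytes, had a response of 7.07 ± 0.24 under miR_Exo against 7.08 ± 0.23 under NPPC_Exo and an interaction of −0.01 ± 0.28 (adjusted p = 0.993). Mmp3, a protease that cleaves aggrecan, had 6.85 ± 0.18 against 6.5 ± 0.18 and an interaction of 0.35 ± 0.24 (adjusted p = 0.383). Mmp13, a collagenase, had an interaction of 1.37 ± 0.42 (adjusted p = 0.0660); its level was 116, 118 and 119 CPM in Erastin+miR_Exo and 1.29, 1.42 and 1.87 CPM in miR_Exo, against 59.7, 119 and 99.4 CPM in Erastin+NPPC_Exo and 2.09, 3.33 and 3.98 CPM in NPPC_Exo. Nfkbie, an inhibitor of NF-kB that NF-kB itself induces, was one of 2 lower genes, with 1 higher, among 15 of the NF-kB list. Nfkbie had a response of 0.99 ± 0.23 under miR_Exo against 2.48 ± 0.24 under NPPC_Exo and an interaction of −1.49 ± 0.32 (adjusted p = 0.0135).

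Cd74, the invariant chain that guides MHC class II, rose under both exosomes. Cd74 had 18.4, 17.2 and 16.6 CPM in the Erastin+miR_Exo libraries and 0.604, 0.398 and 0.283 CPM in the miR_Exo libraries, against 10.0, 11.3 and 10.2 CPM in the Erastin+NPPC_Exo libraries and 0.838, 0.960 and 1.88 CPM in the NPPC_Exo libraries. The interaction of 2.25 ± 0.38 (adjusted p = 0.00202) went with a higher level under miR_Exo with erastin and a lower one without it. Of the macrophage and leukocyte markers, 9 of 12 were in the table and 5 tested. Of these 5, 0 were called, while 1 was higher in a fit with DESeq2 and 1 with the curve. The summed level of the 9 markers was 22.6 to 29.9 CPM in Erastin+miR_Exo and 10.2 to 11.5 CPM in miR_Exo, against 13.2 to 18.2 CPM in Erastin+NPPC_Exo and 7.74 to 9.77 CPM in NPPC_Exo, and 0 of them were at 0 in all libraries. The receptor Csf1r, a defining macrophage gene, had 0.400, 0.220 and 0.401 CPM in Erastin+miR_Exo and 0.311, 0.398 and 0.425 CPM in miR_Exo, against 0.428, 0.514 and 0.267 CPM in Erastin+NPPC_Exo and 0.214, 0.264 and 0.344 CPM in NPPC_Exo. Markers differed in the fits without one library. The interaction lay between 0.49 and 0.76 for Cd14 and between −0.49 and 0.26 for Cd68. It lay between −0.96 and −0.50 for Csf1r, −1.02 and −0.27 for Lyz2, and −9.96 and 1.47 for Itgam. The part of such cells in the cytokine and Cd74 values was not tested.

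Among the genes erastin acts through, the cystine importer Slc7a11 fell less under miR_Exo. Slc7a11 had 17.5, 19.7 and 17.5 CPM in the Erastin+miR_Exo libraries and 23.6, 24.4 and 24.4 CPM in the miR_Exo libraries, against 14.6, 13.2 and 14.5 CPM in the Erastin+NPPC_Exo libraries and 34.9, 36.9 and 36.6 CPM in the NPPC_Exo libraries. The groups did not overlap, with the Erastin+NPPC_Exo libraries lowest and the NPPC_Exo libraries highest. Its response of −0.40 ± 0.08 under miR_Exo against −1.36 ± 0.08 under NPPC_Exo and an interaction of 0.95 ± 0.11 (adjusted p = 0.000168) held in all 12 fits without one library. The difference between the kinds of exosome, miR_Exo minus NPPC_Exo, was 0.37 ± 0.08 with erastin and −0.58 ± 0.08 without it. In the list of cystine import and glutathione this was the 1 higher gene, with 1 lower (Gpx7, a peroxidase of the endoplasmic reticulum, −0.56 ± 0.11) of 14. Gpx4, the peroxidase that reduces lipid peroxides, had an interaction of 0.35 ± 0.31 (adjusted p = 0.528), with 39.2, 60.5 and 43.2 CPM in Erastin+miR_Exo and 39.2, 50.4 and 44.4 CPM in miR_Exo, against 39.2, 43.5 and 40.2 CPM in Erastin+NPPC_Exo and 36.5, 66.3 and 44.3 CPM in NPPC_Exo. All 4 groups overlapped. Acsl4, which loads polyunsaturated fatty acids for membrane lipids, had 0.23 ± 0.08 (adjusted p = 0.0672). Ptgs2, the inducible cyclooxygenase often read as a mark of ferroptosis, had a response of 1.67 ± 0.09 under miR_Exo against 1.08 ± 0.09 under NPPC_Exo and an interaction of 0.58 ± 0.12 (adjusted p = 0.00836).

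Iron uptake genes leaned to larger responses under miR_Exo, with 6 higher and 1 lower of 14 and a median of 0.35. Of the 6 higher calls, 4 were kept in all 12 fits without one library, as was the lower one. Slc39a14, a zinc and iron importer, had 182, 178 and 166 CPM in the Erastin+miR_Exo libraries and 125, 123 and 128 CPM in the miR_Exo libraries, against 111, 119 and 119 CPM in the Erastin+NPPC_Exo libraries and 144, 134 and 145 CPM in the NPPC_Exo libraries. With erastin the miR_Exo libraries were clearly higher, and without erastin they lay below the NPPC_Exo ones. Slc39a14 had a response of 0.48 ± 0.05 under miR_Exo against −0.28 ± 0.05 under NPPC_Exo and an interaction of 0.76 ± 0.07 (adjusted p = 4.37e-05). The iron importer Slc11a2 had an interaction of 0.53 ± 0.08 (adjusted p = 0.00124), the transferrin receptor Tfrc 0.47 ± 0.10 (adjusted p = 0.00653) and Ncoa4, the receptor that carries ferritin to lysosomes, 0.36 ± 0.07 (adjusted p = 0.00453). Transferrin (Tf), the iron carrier of plasma, was the lower one at −0.49 ± 0.10 (adjusted p = 0.00714). Ferritin heavy chain Fth1 had 0.35 ± 0.15 (adjusted p = 0.139). Another of the higher genes, Steap4, had 0 counts in the miR_Exo group, and its fitted value is not given. The call of Steap4 was not kept in all 12 fits without one library.

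Of iron export and haem genes 3 were higher and 1 was lower of 12. Beside Hpx and Cp, the iron exporter Slc40a1 had 0.78 ± 0.21 (adjusted p = 0.0256), a call kept in 5 of 12 fits. The haem oxygenase Hmox1 fell with erastin, and fell further under miR_Exo. Hmox1 had 75.3, 76.6 and 85.5 CPM in the Erastin+miR_Exo libraries and 143, 157 and 151 CPM in the miR_Exo libraries, against 107, 114 and 126 CPM in the Erastin+NPPC_Exo libraries and 162, 135 and 142 CPM in the NPPC_Exo libraries. The Erastin+miR_Exo libraries were the lowest and the groups without erastin overlapped. Hmox1 had a response of −0.93 ± 0.08 under miR_Exo against −0.34 ± 0.08 under NPPC_Exo and an interaction of −0.59 ± 0.11 (adjusted p = 0.00352).

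Matrix genes went both ways, with 4 higher and 5 lower of 28 in the disc matrix list (median −0.02). The higher ones were proteoglycans. Lum, a small leucine-rich proteoglycan on collagen fibrils, had 329, 336 and 321 CPM in the Erastin+miR_Exo libraries and 100.3, 97.2 and 105 CPM in the miR_Exo libraries, against 77.5, 92.3 and 93.3 CPM in the Erastin+NPPC_Exo libraries and 104, 106 and 122 CPM in the NPPC_Exo libraries. The Erastin+miR_Exo libraries stood alone at the top, while the Erastin+NPPC_Exo libraries lay below those of NPPC_Exo. Lum had the smallest p of all genes, with a response of 1.71 ± 0.08 under miR_Exo against −0.33 ± 0.07 under NPPC_Exo and an interaction of 2.04 ± 0.11 (adjusted p = 1.57e-07), and both responses passed the test in opposite directions.

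Dcn (decorin), another small proteoglycan, had 26.4, 28.9 and 25 CPM in the Erastin+miR_Exo libraries and 4.17, 4.69 and 5.26 CPM in the miR_Exo libraries, against 2.89, 4.07 and 4.31 CPM in the Erastin+NPPC_Exo libraries and 3.16, 3.09 and 4.43 CPM in the NPPC_Exo libraries. Again only the Erastin+miR_Exo libraries were apart. Dcn had a response of 2.51 ± 0.17 under miR_Exo against 0.08 ± 0.17 under NPPC_Exo and an interaction of 2.42 ± 0.24 (adjusted p = 4.97e-05). Versican (Vcan), a large hyaluronan-binding proteoglycan, had a response of 2.76 ± 0.08 under miR_Exo against 1.88 ± 0.07 under NPPC_Exo and an interaction of 0.88 ± 0.10 (adjusted p = 0.000151), and Prelp, which anchors basement membranes, 0.54 ± 0.09 (adjusted p = 0.00211). Abi3bp, an extracellular matrix protein outside this list, fell under plain exosomes and hardly changed under miR_Exo. Abi3bp had 60.8, 63.0 and 51.4 CPM in the Erastin+miR_Exo libraries and 63.8, 56.9 and 65.7 CPM in the miR_Exo libraries, against 15.2, 18.0 and 21.2 CPM in the Erastin+NPPC_Exo libraries and 77.8, 78.5 and 77.1 CPM in the NPPC_Exo libraries. The Erastin+NPPC_Exo libraries were the low ones, and the others lay between 51.4 and 78.5 CPM. Its interaction was 2.01 ± 0.15 (adjusted p = 5.6e-06).

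Of the 7 cartilage collagens in this list 3 were lower, Col2a1, Col9a2 and Col9a3, and 0 were higher. Col2a1, the chain of type II collagen, had 63.5, 56.6 and 83.8 CPM in the Erastin+miR_Exo libraries and 1248, 930.4 and 906 CPM in the miR_Exo libraries, against 202, 223 and 255 CPM in the Erastin+NPPC_Exo libraries and 1387, 857 and 831 CPM in the NPPC_Exo libraries. Groups without erastin overlapped and the Erastin+miR_Exo libraries were lowest; library 1 was the highest of its group in both groups without erastin. Col2a1 had a response of −3.92 ± 0.27 under miR_Exo against −2.18 ± 0.25 under NPPC_Exo and an interaction of −1.74 ± 0.34 (adjusted p = 0.0127). It lies in the highest decile of slopes, and its interaction was −0.80 with the curve (adjusted p = 1.86e-06). Col9a3, a chain of type IX collagen in the same decile, had −2.46 ± 0.52, or −1.27 with the curve (adjusted p = 0.0456). Sox9, the factor that drives these collagens in cartilage, had −1.12 ± 0.29 (adjusted p = 0.0264), kept in 6 of 12 fits and not called with the curve (−0.38, adjusted p = 0.155). Col9a2, another chain of type IX collagen, had −2.70 ± 0.60 (adjusted p = 0.0228), kept in 8 of 12 fits, and −1.1 with the curve (adjusted p = 0.000339). The abundant Col11a1, a chain of type XI collagen, had −0.05 ± 0.07 (adjusted p = 0.729) and Col9a1 −0.18 ± 0.08 (adjusted p = 0.186), neither of them called. Cilp, a matrix protein of the cartilage interlayer, had −1.50 ± 0.31 (adjusted p = 0.0101) and the link protein Hapln1 −0.70 ± 0.14 (adjusted p = 0.00606). Aggrecan (Acan) itself fell strongly under both, with a response of −3.09 ± 0.07 under miR_Exo against −2.81 ± 0.07 under NPPC_Exo and an interaction of −0.28 ± 0.10 (adjusted p = 0.0703). Acan thus missed the threshold, but 5 of 25 alternative settings called it lower, among them DESeq2 and 2 fits without one library. In the fibrous matrix list 3 genes were higher and 6 lower of 18 (median −0.21), among them the fibril-associated collagen Col14a1 at 0.61 ± 0.07 (adjusted p = 0.000168) and the crosslinking enzyme Loxl2 at −0.50 ± 0.08 (adjusted p = 0.000897).

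Contractile genes fell further under miR_Exo, with 0 higher and 10 lower of 16 tested and a median interaction of −0.50. Acta2, smooth muscle actin, had 2143, 2236 and 2195 CPM in the Erastin+miR_Exo libraries and 10417, 10013 and 10129.9 CPM in the miR_Exo libraries, against 4442, 3743 and 4137 CPM in the Erastin+NPPC_Exo libraries and 11548, 12169.8 and 13108 CPM in the NPPC_Exo libraries. The erastin groups were apart, and both lay below the groups without erastin, where miR_Exo was also the lower. Acta2 had a response of −2.22 ± 0.06 under miR_Exo against −1.58 ± 0.06 under NPPC_Exo and an interaction of −0.64 ± 0.08 (adjusted p = 0.000355). Actg2, the actin of visceral smooth muscle, had 20.5, 20.9 and 22.9 CPM in the Erastin+miR_Exo libraries and 169.5, 177 and 159.8 CPM in the miR_Exo libraries, against 74.2, 59.4 and 67.1 CPM in the Erastin+NPPC_Exo libraries and 245, 271 and 275 CPM in the NPPC_Exo libraries. The order of the groups was the same. Actg2 had a response of −2.98 ± 0.08 under miR_Exo against −1.98 ± 0.08 under NPPC_Exo and an interaction of −1.0 ± 0.11 (adjusted p = 0.000111). The tropomyosin Tpm1 had −0.64 ± 0.07 (adjusted p = 6.84e-05), the smooth muscle myosin Myh11 −0.54 ± 0.07 (adjusted p = 0.000444) and Tagln, an actin-binding protein, −0.57 ± 0.09 (adjusted p = 0.00144). Of the 10 called genes, 9 were kept in all 12 fits without one library.

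Markers of other cell types are given beside these genes. Of 13 muscle markers 10 were in the table and tested, 1 was lower, against 6.61% of all genes, and 0 were higher. Their summed level was 7.98 to 10.4 CPM in Erastin+miR_Exo and 189.8 to 198.0 CPM in miR_Exo, against 16.8 to 23.7 CPM in Erastin+NPPC_Exo and 236.3 to 259.0 CPM in NPPC_Exo. The lower one was Pln, which restrains the calcium pump of muscle. Pln had 1.24, 1.89 and 1.11 CPM in the Erastin+miR_Exo libraries and 116, 126 and 114 CPM in the miR_Exo libraries, against 5.21, 4.93 and 5.29 CPM in the Erastin+NPPC_Exo libraries and 114, 137 and 137 CPM in the NPPC_Exo libraries. Pln was far lower with erastin under both exosomes, and lowest in Erastin+miR_Exo, with an interaction of −1.73 ± 0.19 (adjusted p = 0.000145). Pln made up the larger part of the summed level in miR_Exo. Of 11 endothelial markers 7 were in the table and 5 tested, 1 lower and 0 higher. Their summed level was 8.74 to 13.1 CPM in Erastin+miR_Exo and 157 to 164 CPM in miR_Exo, against 15.6 to 18.6 CPM in Erastin+NPPC_Exo and 154 to 172 CPM in NPPC_Exo. The lower one was the adhesion protein Esam, with an interaction of −0.65 ± 0.19 (adjusted p = 0.0364), kept in 4 of 12 fits. The part of muscle-like or endothelial cells in the contractile values was not tested. Enpp1, an enzyme that makes the mineralisation inhibitor pyrophosphate, was lower as well. Enpp1 had 227, 237 and 214 CPM in the Erastin+miR_Exo libraries and 530.1, 524 and 549.8 CPM in the miR_Exo libraries, against 749, 663 and 709 CPM in the Erastin+NPPC_Exo libraries and 859, 844 and 874 CPM in the NPPC_Exo libraries. None of its 4 groups overlapped, and its response of −1.24 ± 0.05 under miR_Exo against −0.28 ± 0.05 under NPPC_Exo and an interaction of −0.96 ± 0.07 (adjusted p = 5.6e-06) held in all 12 fits.

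**Figure D5:**
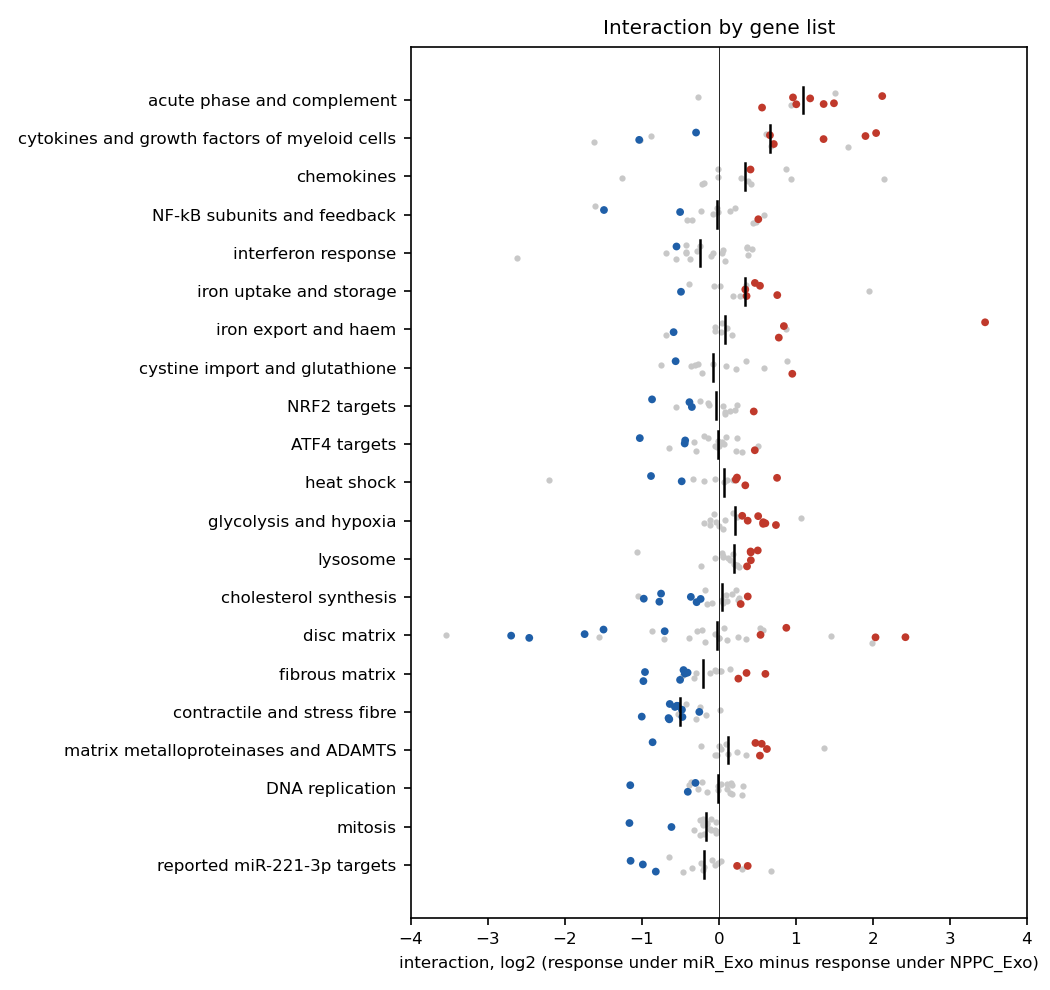
Interaction (log2) of every tested member of 21 gene lists without genes that had 0 counts in a group, called genes in red (higher) or blue (lower), and the list median as a black line. Acute-phase genes lie mostly to the right and contractile genes to the left, while replication genes have a median near 0.

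Glycolysis and hypoxia genes counted 7 higher and 0 lower of 18, with a median of 0.21. Ldha, lactate dehydrogenase, had 1488, 1564 and 1580.0 CPM in the Erastin+miR_Exo libraries and 962, 1021 and 983 CPM in the miR_Exo libraries, against 1149, 1127 and 1189.6 CPM in the Erastin+NPPC_Exo libraries and 999, 1135 and 1174 CPM in the NPPC_Exo libraries. The Erastin+miR_Exo libraries were the highest, and the other groups lay close together. Ldha had a response of 0.64 ± 0.06 under miR_Exo against 0.07 ± 0.06 under NPPC_Exo and an interaction of 0.58 ± 0.08 (adjusted p = 0.000452). Pgk1, phosphoglycerate kinase, had 0.60 ± 0.08 (adjusted p = 0.000492) and Hk2, the inducible hexokinase, 0.58 ± 0.09 (adjusted p = 0.00105). Lysosome genes counted 5 higher and 0 lower of 18, with a median of 0.19. The proteases Ctsb and Ctsd had interactions of 0.42 ± 0.06 (adjusted p = 0.000700) and 0.41 ± 0.08 (adjusted p = 0.00466). Ctsd had 316, 317 and 339.7 CPM in the Erastin+miR_Exo libraries and 329, 355 and 351 CPM in the miR_Exo libraries, against 210.4, 213 and 214 CPM in the Erastin+NPPC_Exo libraries and 279.6, 297 and 327 CPM in the NPPC_Exo libraries. Ctsd thus fell under NPPC_Exo, while its response under miR_Exo, −0.09 ± 0.06, did not pass the test. These differences were well under 2-fold.

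Stress and cell cycle lists are given beside the 12.5% of all genes that were called. NRF2 targets counted 1 higher and 3 lower of 14, ATF4 targets 1 and 3 of 20, chaperones of the endoplasmic reticulum 0 and 2 of 17, heat shock genes 4 and 2 of 13 and cholesterol synthesis 2 and 6 of 21. Calls of NRF2, ATF4, heat shock and cholesterol genes were each a larger share than over all genes, as were those of replication genes given next. The list medians of NRF2, ATF4, heat shock and cholesterol genes were −0.03, −0.02, 0.07 and 0.04, against 0.03. Kept in all 12 fits were 2 higher and 2 lower heat shock genes, 1 higher and 1 lower NRF2 target, 1 lower ATF4 target and 1 lower cholesterol gene. DNA replication counted 0 higher and 3 lower of 19, mitosis 0 and 2 of 18, interferon response 0 and 1 of 20, and p53 targets 0 and 1 of 13. With the curve on the component the lower calls were more, with 6 replication, 7 mitosis, 3 interferon, 4 p53 and 5 chaperone genes lower and 0 higher, while heat shock had 2 higher and 2 lower and cholesterol synthesis 0 higher and 5 lower. Cdc20, which starts the exit from mitosis, had −1.16 ± 0.19 (adjusted p = 0.00242), or −0.75 with the curve (adjusted p = 0.000749), and Cdt1, which licenses replication origins, −1.15 ± 0.25 (adjusted p = 0.0102), or −0.55 with the curve (adjusted p = 0.0216).

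Growth factor pathways had members in both directions. The TGF-beta and BMP list counted 3 higher and 3 lower of 21, beside 5.90% higher and 6.61% lower over all genes. Inhba, the activin subunit, had a response of 1.58 ± 0.07 under miR_Exo against 0.87 ± 0.07 under NPPC_Exo and an interaction of 0.71 ± 0.09 (adjusted p = 0.000389). Bmp4, a ligand, rose under NPPC_Exo alone. Bmp4 had 51.6, 50.8 and 52.7 CPM in the Erastin+miR_Exo libraries and 56.0, 49.8 and 50.5 CPM in the miR_Exo libraries, against 83.2, 122 and 112 CPM in the Erastin+NPPC_Exo libraries and 60.1, 41.9 and 43.2 CPM in the NPPC_Exo libraries. The Erastin+NPPC_Exo libraries were the high ones, above 60.1 CPM, the highest of the rest. Bmp4 had a response of −0.01 ± 0.15 under miR_Exo against 1.13 ± 0.15 under NPPC_Exo and an interaction of −1.14 ± 0.21 (adjusted p = 0.00696), and −0.66 with the curve (adjusted p = 0.00736). The list of WNT and hedgehog genes counted 4 higher and 2 lower of 18. Ptch1, the hedgehog receptor and a hedgehog target, had 34.0, 34.3 and 32.8 CPM in the Erastin+miR_Exo libraries and 20.2, 21.1 and 22 CPM in the miR_Exo libraries, against 16.4, 16.0 and 13.7 CPM in the Erastin+NPPC_Exo libraries and 22.9, 20.2 and 24.1 CPM in the NPPC_Exo libraries. Here the Erastin+miR_Exo libraries were highest and the Erastin+NPPC_Exo libraries lowest. Its response of 0.68 ± 0.09 under miR_Exo against −0.54 ± 0.09 under NPPC_Exo and an interaction of 1.22 ± 0.13 (adjusted p = 7.36e-05) paired a positive and a negative response that each passed the test. Rspo3, which strengthens WNT signals, had 1.38 ± 0.20 (adjusted p = 0.000706) and the secreted Dickkopf protein Dkk3 −1.12 ± 0.13 (adjusted p = 0.000168).

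Genes reported as targets of miR-221-3p did not move as one. There were 2 higher and 3 lower of 17 tested (median −0.19), beside 5.90% higher and 6.61% lower over all genes. Cdkn1b, the cell cycle inhibitor p27, had 16.1, 13.7 and 14.1 CPM in the Erastin+miR_Exo libraries and 27.6, 23.8 and 25 CPM in the miR_Exo libraries, against 46.1, 54.5 and 51.3 CPM in the Erastin+NPPC_Exo libraries and 50.3, 34.4 and 34.7 CPM in the NPPC_Exo libraries. Levels under miR_Exo were lower than under NPPC_Exo both with and without erastin, and library 1 was the highest of the NPPC_Exo group. Cdkn1b had a response of −0.80 ± 0.13 under miR_Exo against 0.35 ± 0.13 under NPPC_Exo and an interaction of −1.15 ± 0.19 (adjusted p = 0.00177). It lies in the highest decile of slopes, and its interaction was −0.66 with the curve (adjusted p = 0.00303). Angptl2, a secreted angiopoietin-like protein, had −0.99 ± 0.12 (adjusted p = 0.000239) and Timp3, an inhibitor of metalloproteinases, −0.82 ± 0.18 (adjusted p = 0.0101). The mitophagy receptor Bnip3 was higher at 0.38 ± 0.08 (adjusted p = 0.00945). The target Bbc3 was not analysed here.

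The largest differences outside these lists include genes whose responses were opposite. Cxadr, a cell adhesion protein of tight junctions, had 17.4, 18.3 and 16.0 CPM in the Erastin+miR_Exo libraries and 6.09, 6.18 and 6.74 CPM in the miR_Exo libraries, against 8.91, 6.97 and 7.18 CPM in the Erastin+NPPC_Exo libraries and 11.3, 12.0 and 9.03 CPM in the NPPC_Exo libraries. The miR_Exo libraries were lower than the NPPC_Exo ones without erastin and higher with it. Cxadr had a response of 1.44 ± 0.13 under miR_Exo against −0.49 ± 0.13 under NPPC_Exo and an interaction of 1.93 ± 0.19 (adjusted p = 4.06e-05). Fam13a had a response of 1.88 ± 0.11 under miR_Exo against −0.11 ± 0.10 under NPPC_Exo and an interaction of 1.98 ± 0.15 (adjusted p = 5.6e-06). St3gal6, a sialyltransferase, had 0.23 ± 0.20 under miR_Exo against −1.73 ± 0.22 under NPPC_Exo, an interaction of 1.96 ± 0.30 (adjusted p = 0.000968).

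On the lower side, 10 of the 12 genes with the largest differences lie in the highest decile of slopes. Nhp2, a protein of the particles that modify ribosomal RNA, had 5.06, 5.15 and 5.73 CPM in the Erastin+miR_Exo libraries and 12.2, 12.3 and 10.4 CPM in the miR_Exo libraries, against 11.8, 13.9 and 15.7 CPM in the Erastin+NPPC_Exo libraries and 8.68, 7.23 and 5.75 CPM in the NPPC_Exo libraries. Without erastin the miR_Exo libraries were higher, and with erastin they were lower. Nhp2 had a response of −1.13 ± 0.15 under miR_Exo against 0.93 ± 0.15 under NPPC_Exo and an interaction of −2.06 ± 0.22 (adjusted p = 7.71e-05), and −1.61 with the curve (adjusted p = 1.72e-05). G0s2, an inhibitor of the fat-splitting enzyme Pnpla2, had 0.163, 0.352 and 0.556 CPM in the Erastin+miR_Exo libraries and 2.10, 2.35 and 1.87 CPM in the miR_Exo libraries, against 1.61, 2.13 and 2.26 CPM in the Erastin+NPPC_Exo libraries and 1.52, 1.60 and 0.868 CPM in the NPPC_Exo libraries. These are low levels, and the Erastin+miR_Exo libraries were lowest. G0s2 had an interaction of −3.15 ± 0.52 (adjusted p = 0.00163), or −2.64 with the curve (adjusted p = 0.00172). Nme3, a nucleoside diphosphate kinase, had the largest of these 12 apart from Sting1, −4.08 ± 0.63 (adjusted p = 0.00105), or −3.56 with the curve (adjusted p = 0.00102), at levels below 3 CPM in every library. Mrps28, of the mitochondrial ribosome, had −2.57 ± 0.50 and Sts, steroid sulfatase, −2.55 ± 0.49, and both shrank with the curve, to −1.19 and −1.09. With the curve Tnfaip8l1 (−2.70 ± 0.66, then −0.76, adjusted p = 0.248) and Tmem8b (−1.99 ± 0.45, then −0.70, adjusted p = 0.107) were no longer called. Sting1, the sensor adaptor of cytosolic DNA, had 0 counts in all 3 NPPC_Exo libraries, so no fold is given. Sting1 had 5.61, 5.38 and 5.18 CPM in the Erastin+miR_Exo libraries and 0.983, 0.571 and 0.614 CPM in the miR_Exo libraries, against 2.24, 1.33 and 1.08 CPM in the Erastin+NPPC_Exo libraries and 0, 0 and 0 CPM in the NPPC_Exo libraries. Sting1 was thus highest in Erastin+miR_Exo.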

How the data were processed

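The libraries held total RNA of rat nucleus pulposus cells and were prepared with dUTP marking of the second strand, per the labels' protocols. The authors deposited 1 table of 21071 genes with raw counts and FPKM for each of the 12 libraries. StringTie and the build mRatBN7.2 are named, per the submitters' processing notes, without a version; the sources used here do not give the aligner, the counting tool or whether counting used strand.

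The filterByExpr function left 15650 genes with enough counts. TMM scaling gave factors from 0.877 to 1.15, and the counts were fitted with the quasi-likelihood test of edgeR 4.0.16 (glmQLFit and glmQLFTest, robust) on 4 group means, in R 4.3.3. The interaction was (Erastin+miR_Exo minus miR_Exo) minus (Erastin+NPPC_Exo minus NPPC_Exo). Values after ± are standard errors of log2 fold changes. A gene was called, or said to rise or fall, at a Benjamini-Hochberg adjusted p under 0.05 over all genes tested. CPM were counts over the scaled library total, and log2 CPM had a prior count of 1. The deposited FPKM gave the floor of 2 for named genes, implied gene lengths and the limma 3.58.1 alternatives with a pseudocount of 1 or 0.1. Where a group had 0 counts no fold is given.

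The comparison, the 41 gene lists and the genes named were chosen with earlier results of these data known. Genes were named by rule: the 12 with the largest difference each way called in the fit of all libraries and in all 12 without one library, up to 3 called genes per list in order of adjusted p, and 20 genes whatever their result; genes outside it were chosen after their values were seen, among them Lbp, Ptx3, Serping1, Tf, Lif, Col9a1, Col9a2, Col9a3, Col11a1, Cilp, Hapln1, Prelp, Bmp4, Myh11, Tagln, Csf1r, Krt8 and Foxf1. Results of a few genes of the lists and of the rule are not reported here. Replicate numbers do not pair the libraries by any label. Alternatives were other scalings, filters, DESeq2 1.42.0, limma, halved counts, glmTreat, a replicate block and leaving out each library; the curve on the component was added after seeing the data. The fit was tested on simulated counts with a known interaction. Counting error is small at these totals for genes well above 1 CPM, where the spread between 3 libraries a group limits the precision. At these totals 3 counts are 0.0436 to 0.0549 CPM. Counting error is larger for values under 1 CPM, as in some groups of G0s2, Csf1r, Mir221, Ptx3 and Cd74.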

Additional observations from a re-analysis of the deposited data

Results flagged for a closer look

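The erastin response differed between the kinds of exosome in 1958 genes by the test of the difference itself. In 6 of the genes with the largest differences both responses also passed the test in opposite directions. The interaction was 2.04 for Lum and 1.93 for Cxadr, which rose under miR_Exo and fell under NPPC_Exo. It was −2.06 for Nhp2, −4.08 for Nme3, −2.12 for Fam43a and −2.01 for En1, which fell under miR_Exo and rose under NPPC_Exo. The last 4 lie in the highest decile of slopes on the component of the spread within groups. Their values with the curve on it were −1.61, −3.56, −0.84 and −1.11. All were still called, by adjusted p that do not count the removal of the curve. En1 was low throughout, with 1.27, 1.08 and 2.33 CPM in Erastin+miR_Exo and 4.30, 2.51 and 2.49 CPM in miR_Exo, against 3.55, 3.60 and 3.83 CPM in Erastin+NPPC_Exo and 2.09, 1.22 and 2.10 CPM in NPPC_Exo.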

How the results depend on the processing

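Of 3188 values of 128 named genes under the alternatives, 2886 kept their direction and their side of the threshold, 285 were no longer called, 16 became called and 1 reversed, Sting1 at 0.76 with limma-trend on log2(FPKM + 1). The test against 1.5-fold made up 99 of the 285 and leaving out a library 148. The count of 1958 calls (923 higher, 1035 lower) became 54 (29 and 25) with the test against 1.5-fold and 3054 (1429 and 1625) with limma voom and quality weights, and the component as a covariate gave 1604 lower. Without one library the counts ranged from 1217 to 2567, the higher ones from 503 to 1154 and the lower ones from 627 to 1467. Library size alone gave 2058 (1079 and 979), limma-trend on log2(FPKM + 1) gave 2123 (1093 and 1030), DESeq2 2650 and the replicate block 1921, of which 1772 were shared. Libraries with the same number correlated between −0.157 and 0.257, and 1 of 18 such pairs was over 0.1, so the numbers were not taken as pairs. That pair was library 1 of miR_Exo with library 1 of NPPC_Exo, which also had the highest scores on the component, 0.362 and 0.664. Libraries with unlike numbers in different groups correlated at most at 0.164. The lists with most calls kept their direction under library size alone, DESeq2 size factors and DESeq2, with acute-phase genes at 7 higher and 0 lower of 10 in each and contractile genes at 0 higher and 10 to 12 lower of 16. Where calls moved, the cause was not tested. With 3 libraries a group small differences can be missed.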

Other observations

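Further lists had called members, some of them near the shares of all genes, 5.90% higher and 6.61% lower. Matrix metalloproteinases and ADAMTS counted 4 higher and 1 lower of 16, with Adamts5, an aggrecan-cleaving protease, at 0.53 ± 0.11 (adjusted p = 0.00606). Of the protease inhibitor list, 2 were higher and 2 lower of 10, and the plasminogen activator Plat in it had 0.88 ± 0.14 (adjusted p = 0.00149). Prostaglandin genes counted 2 higher and 0 lower of 10, with the phospholipase Pla2g4a at 0.78 ± 0.10 (adjusted p = 0.000241) and the prostaglandin-degrading enzyme Hpgd at 1.52 ± 0.41 (adjusted p = 0.0262, kept in 7 of 12 fits without one library). Tetraspanins and exosome release counted 0 higher and 3 lower of 14, with the tetraspanin Cd81 at −0.45 ± 0.10 (adjusted p = 0.0128), or −0.27 with the curve (adjusted p = 0.0437). Immediate early genes counted 0 higher and 2 lower of 16 with a median of −0.48. Ier2, a nuclear protein of this class, had −2.68 ± 0.67 (adjusted p = 0.0338, kept in 4 of 12) and −0.77 with the curve (adjusted p = 0.00252). Jun, a subunit of AP-1, had 13, 14 and 15.3 CPM in the Erastin+miR_Exo libraries and 58.6, 31.4 and 30.6 CPM in the miR_Exo libraries, against 28.9, 28.2 and 33.3 CPM in the Erastin+NPPC_Exo libraries and 29.7, 22.4 and 18.9 CPM in the NPPC_Exo libraries. Library 1 was the highest in both groups without erastin, and the interaction of −1.86 ± 0.35 (adjusted p = 0.00825) became −0.94 with the curve (adjusted p = 0.00258).

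Several genes that passed the test against 1.5-fold stand in no list and were chosen after their values were seen. Osmr, the receptor subunit of oncostatin M, rose under miR_Exo alone. Osmr had 79.4, 82.1 and 71.8 CPM in the Erastin+miR_Exo libraries and 33.9, 35.7 and 36.7 CPM in the miR_Exo libraries, against 36.1, 36.3 and 31.9 CPM in the Erastin+NPPC_Exo libraries and 31.9, 32.0 and 31.3 CPM in the NPPC_Exo libraries. Only the Erastin+miR_Exo libraries were apart, and Osmr had a response of 1.13 ± 0.07 under miR_Exo against 0.13 ± 0.07 under NPPC_Exo and an interaction of 1.00 ± 0.10 (adjusted p = 4.59e-05). Slc7a2, a carrier of cationic amino acids, had a response of 0.68 ± 0.06 under miR_Exo against −0.35 ± 0.06 under NPPC_Exo and an interaction of 1.03 ± 0.09 (adjusted p = 1.78e-05). Fgf10, a fibroblast growth factor, fell under both exosomes and less under miR_Exo. Fgf10 had 57.8, 58.7 and 50.2 CPM in the Erastin+miR_Exo libraries and 134, 145 and 135 CPM in the miR_Exo libraries, against 32.1, 29.8 and 36.5 CPM in the Erastin+NPPC_Exo libraries and 187, 191 and 189 CPM in the NPPC_Exo libraries. The Erastin+NPPC_Exo libraries were the lowest, and the interaction was 1.22 ± 0.11 (adjusted p = 1.78e-05). Gja5, a connexin of gap junctions, had 1.81 ± 0.16 (adjusted p = 1.78e-05).

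On the lower side, the water channel Aqp1 fell further under miR_Exo. Aqp1 had 109.9, 103 and 121 CPM in the Erastin+miR_Exo libraries and 426, 487 and 448 CPM in the miR_Exo libraries, against 433, 433 and 453 CPM in the Erastin+NPPC_Exo libraries and 738, 848 and 829 CPM in the NPPC_Exo libraries. The Erastin+miR_Exo libraries were the lowest, and Aqp1 had a response of −2.03 ± 0.07 under miR_Exo against −0.87 ± 0.07 under NPPC_Exo and an interaction of −1.15 ± 0.10 (adjusted p = 1.78e-05). Tcf7l2, a factor that carries WNT signals to the genome, had a response of −1.32 ± 0.11 under miR_Exo against −0.10 ± 0.11 under NPPC_Exo and an interaction of −1.22 ± 0.15 (adjusted p = 0.000338), and Tgfb1i1, a focal adhesion protein, −1.07 ± 0.12 (adjusted p = 0.000111). Lamb3, a laminin chain of basement membranes, rose under both exosomes and less under miR_Exo, with 3.77, 3.72 and 4.01 CPM in Erastin+miR_Exo and 1.10, 1.35 and 1.53 CPM in miR_Exo, against 24.3, 25.5 and 29.2 CPM in Erastin+NPPC_Exo and 2.16, 2.86 and 3.51 CPM in NPPC_Exo. Its interaction was −1.68 ± 0.24 (adjusted p = 0.000640).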
